A study of Homo sapiens with 6 samples.

Results

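Serpins are a superfamily of protease inhibitors, described here through 34 genes of the 24580 rows in an RNA sequencing table of 2 colorectal cancer cell lines. The members were every row whose symbol is SERPIN followed by a clade letter from A to I and a number, with the collagen chaperone SERPINH1 left out. They comprise 13 genes of clade B and 21 genes of the secreted clades (11 of clade A, 3 of clade E, 2 each of clades F and I, and 1 each of clades C, D and G). Most serpins trap a target protease by offering a reactive loop as bait, which the protease cuts and on which it is then locked in an inactive complex. Clade B serpins lack a cleavable signal peptide and act mainly inside cells, whereas the other clades studied here act mainly outside cells, in plasma or in the matrix around cells. In epithelia, clade B members guard against leaked granule and lysosomal proteases, and the secreted clade E members control the proteases that make plasmin.

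The groups were LoVo, an established human colorectal adenocarcinoma line labelled as wildtype, and LoVo-HM, labelled as a subline of it with high metastatic capacity. Neither group was treated, each had 3 libraries (6 in all), and neither the derivation of LoVo-HM nor whether it is 1 clone is given. Values are FPKM, in which fragments are counted per transcript length and library size. A LoVo library totals 434108 to 439082 FPKM and a LoVo-HM library 424624 to 428265 FPKM. Read depth is unknown. Nothing in the labels says that the libraries came from separate cultures, so p-values measure the spread between these libraries, which may be technical. Of 8 colorectal epithelial markers, KRT8, KRT18, KRT19, EPCAM, CDH1 and CDX2 were tested, at means of 7.91 to 1348 FPKM. All 6 were called by the test described below, against 44.9% of all tested genes. In LoVo-HM 4 rose, the keratins and CDX2, and 2 fell. CDH1 fell from a mean of 48.0 FPKM in LoVo to 7.91 FPKM in LoVo-HM, and EPCAM from 128 to 51.7 FPKM. The brush border marker VIL1 was listed at 0 in all libraries and the intestinal cadherin CDH17 at 0 in LoVo and at a mean of 0.0144 FPKM in LoVo-HM. Summed levels of 7 hepatocyte markers, a type of cell that makes many clade A serpins, lay between 0.0923 and 0.110 FPKM for LoVo and between 0.0059 and 0.246 FPKM for LoVo-HM, with ALB, APOB, FGB and TTR at 0. Summed levels of 5 endothelial markers were at most 0.303 FPKM, with PECAM1 and KDR at 0. CDH5, too low to test, was at 0 in LoVo and at a mean of 0.0655 FPKM in LoVo-HM, without overlap, while TEK and VWF overlapped. The 6 immune markers summed to 3.84 to 4.02 FPKM per LoVo library and 2.90 to 3.30 FPKM per LoVo-HM library, mostly CD68, with PTPRC at 0. The 6 fibroblast markers summed to 4.83 to 6.36 FPKM per LoVo library and 4.797 to 5.74 FPKM per LoVo-HM library, nearly all of it COL1A1, with COL1A2 at 0. LUM (means of 0.0177 FPKM in LoVo, 0.284 FPKM in LoVo-HM), DCN (0.0099, 0.0856) and PDGFRA (0.0057, 0.0398) were too low to test but higher in LoVo-HM without overlap, PDGFRB overlapped, and the part of these cell types in the results was not tested.

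LoVo-HM was compared with LoVo to ask how the intracellular B clade and the secreted clades differ between the lines. The summed level of all 34 serpins was 93.3 ± 3.78 FPKM for LoVo and 85.1 ± 4.72 FPKM for LoVo-HM (SD, n = 3), and its make-up differed far more than its size. The LoVo libraries held 91.6, 97.6 and 90.6 FPKM of serpin transcripts and the LoVo-HM libraries 87.6, 79.6 and 87.9 FPKM. The B clade made up 76.5, 82.9 and 78.0 FPKM of this in LoVo and 40.2, 36.9 and 39.9 FPKM in LoVo-HM. The secreted clades made up 15.1, 14.7 and 12.6 FPKM in LoVo and 47.4, 42.7 and 48.1 FPKM in LoVo-HM. The secreted share of serpin FPKM was thus 15.1% ± 1.26 (SD, n = 3) in LoVo and 54.1% ± 0.541 (SD, n = 3) in LoVo-HM, with no overlap of the groups. SERPINB5 and SERPINE2 held most of the difference on either side. Without SERPINB5 the B clade sum was 52.3 ± 4.20 FPKM for LoVo and 36.7 ± 1.64 FPKM for LoVo-HM, and without SERPINE2 the secreted sum was 6.38 ± 0.673 and 5.82 ± 0.794 FPKM (SD, n = 3 each). These sums have no test of their own, since a sum follows its most abundant members.

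**Figure D1:**
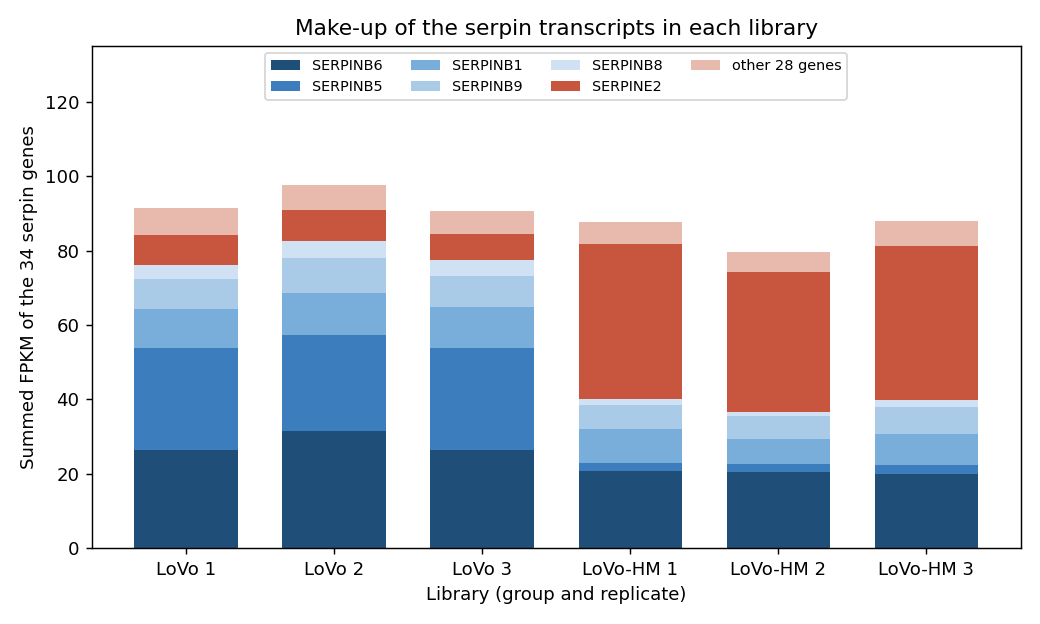
Summed FPKM of the 34 serpin genes (vertical axis) in each of the 6 libraries (horizontal axis), with the 5 tested B clade genes in blue, SERPINE2 in red and all other members in pale red. The SERPINB5 segment is large in the 3 LoVo libraries and narrow in the 3 LoVo-HM libraries, the SERPINE2 segment is the reverse, and the bars end between 79.6 and 97.6 FPKM.

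Of the 34 genes, 10 reached a mean of 0.5 FPKM over the 6 libraries and were tested, 5 in the B clade and 5 in the secreted clades. The other 24 were not tested, and 15 of them were listed at 0 in every library. Differences are LoVo-HM minus LoVo on the log2(FPKM + 1) scale ± SE, on which changes of low genes appear smaller than they are. A gene is called at a limma adjusted p under 0.05, with Benjamini-Hochberg adjustment over the 14487 tested genes. Over all tested genes, 44.9% were called (21.8% higher and 23.1% lower in LoVo-HM), and the groups did not overlap for 55% (27.1% higher and 27.9% lower). All 5 tested B clade genes fell, with a median log2 difference of -0.44 against 0.0027 over all tested genes, and the groups did not overlap for any of the 5. Among the 5 tested secreted genes, SERPINE2 rose, SERPINI1 fell and 3 did not pass, with a median of -0.06. SERPINI1 was under 0.5 FPKM in LoVo-HM and was tested only through its level in LoVo. Counts that include it thus lean on a gene that had to differ. Groups without overlap were found for 8 of the 10 genes, 6 lower and 2 higher. In either direction, this count can lean on members near the filter of 0.5 FPKM. Calls with a difference of at least 1 on the log2(FPKM + 1) scale were SERPINB5 among decreases (4.18% of all tested genes) and SERPINE2 among increases (2.37%). By the ratio of mean FPKM, which the pseudocount does not shrink, the decreases of SERPINB8 (2.60) and SERPINI1 (3.21) were more than 2-fold too. The difference between the clades was not tested, because members of a family are not replicates.

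**Figure D2:**
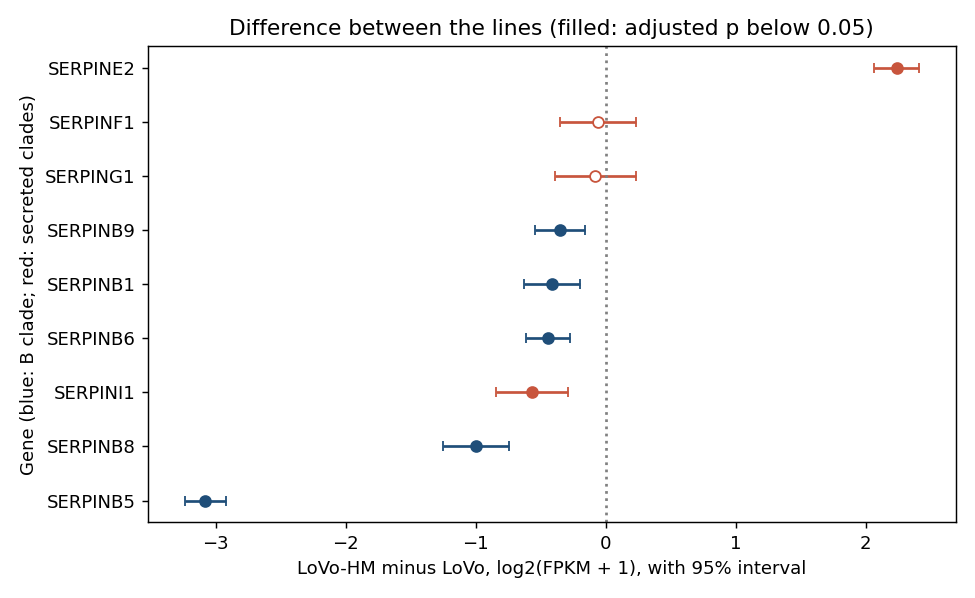
Difference between LoVo-HM and LoVo on the log2(FPKM + 1) scale (horizontal axis) for 9 of the 10 tested serpins (vertical axis), with points for the estimate and bars for its 95% interval, unadjusted, from limma. The 5 B clade genes lie below 0 with SERPINB5 farthest at -3.08, and SERPINE2 stands alone at 2.24.

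SERPINB5 encodes maspin, a B clade protein of epithelial cells that does not inhibit proteases in the usual serpin manner and is known as a suppressor of invasion in breast cancer. The gene (ENSG00000206075) lies on chromosome 18 from 63476761 to 63505085 (GRCh38). Its level was 27.4, 25.8 and 27.3 FPKM in the LoVo libraries and 2.30, 2.11 and 2.49 FPKM in the LoVo-HM libraries. Every LoVo library was far above every LoVo-HM library, and the ratio of the means was 11.7. The log2 difference was -3.08 ± 0.069 (limma adjusted p = 5.87e-09), the rank 55 among decreases in the 14487 tested genes. SERPINB5 stood at the percentile 81.3 of tested genes by level in LoVo and at 23.2 in LoVo-HM. Its share of the B clade sum was 33.999% ± 2.48 in LoVo and 5.89% ± 0.298 in LoVo-HM (SD, n = 3).

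SERPINB8, another B clade gene, encodes an inhibitor of the proprotein convertase furin. It lies at the far end of the same gene cluster (ENSG00000166401, chromosome 18, 63969925 to 64019779). It was at 3.73, 4.42 and 4.37 FPKM in LoVo and at 1.67, 1.27 and 1.86 FPKM in LoVo-HM. The groups did not overlap, and the mean in LoVo was 2.60 times that in LoVo-HM (log2 difference -0.995 ± 0.111, limma adjusted p = 0.000135). The start of SERPINB8 lies within the span of HMSD, a gene on the same strand. Whether their exons overlap was not examined, so some reads there may not be divided between them with certainty. HMSD fell too, from 1.74 ± 0.390 to 0.711 ± 0.134 FPKM (-0.67 ± 0.133, limma adjusted p = 0.00344).

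The chromosome 18 cluster holds 10 B clade genes over 543.0 kb, from SERPINB5 to SERPINB8. The genes between these ends were at or near 0 in both lines. SERPINB3 and SERPINB4, the near-identical squamous cell carcinoma antigens, and SERPINB10, SERPINB11 and SERPINB12 were listed at 0 in all 6 libraries. SERPINB13, a serpin of stratified epithelia, was at 0.194, 0.329 and 0.306 FPKM in LoVo and at 0, 0 and 0.0154 FPKM in LoVo-HM. These values do not overlap, and without the filter on low values SERPINB13 would be called (log2 difference -0.34 ± 0.052, limma adjusted p = 0.00383). SERPINB2, which encodes the urokinase inhibitor PAI-2, was at 0.0781, 0.0341 and 0.156 FPKM in LoVo and at 0, 0.118 and 0 FPKM in LoVo-HM, with overlap. SERPINB7, known as megsin, was at 0.0265, 0 and 0 FPKM in LoVo and at 0.0439, 0.102 and 0.134 FPKM in LoVo-HM. Its groups did not overlap, with LoVo-HM higher, at levels near 0. SERPINB2 and SERPINB7 were not called without the filter either (limma adjusted p = 0.484 and 0.0924).

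**Figure D3:**
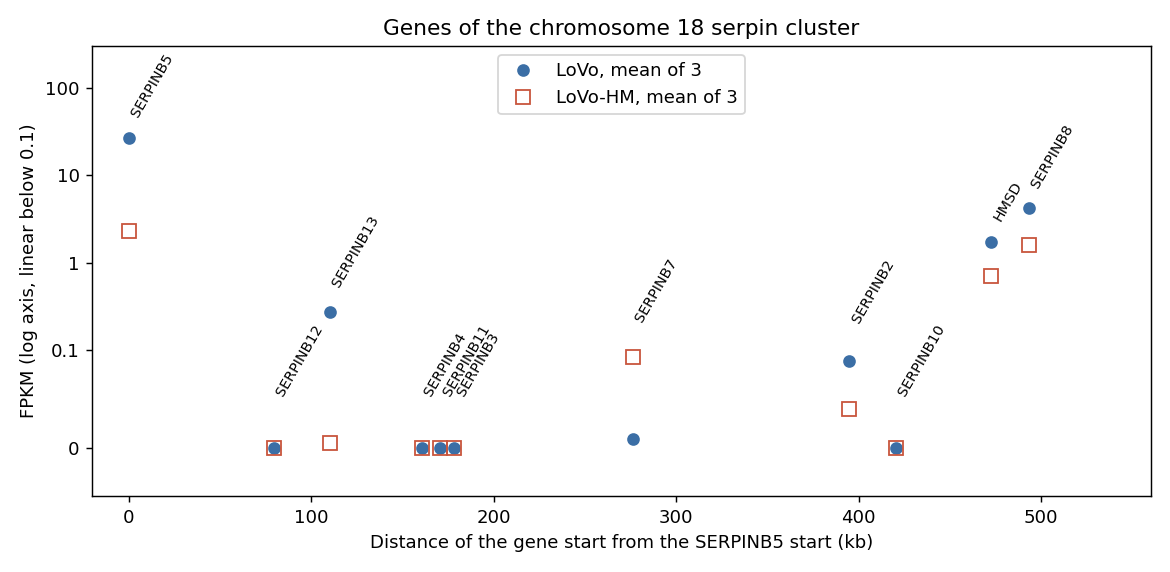
Mean FPKM (vertical axis, logarithmic above 0.1 and linear below) of the 10 serpins of the chromosome 18 cluster and HMSD, by the distance of each gene's start from that of SERPINB5 in kb (horizontal axis), with filled circles for LoVo and open squares for LoVo-HM (n = 3 each). SERPINB5, HMSD and SERPINB8 are above 0.5 FPKM in both lines, at the ends of the cluster, and all genes between the ends are below 0.5 FPKM.

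Of 9 tested neighbours of the cluster, 2 were lower and 7 did not pass. They run from PIGN to VPS4B on one side, with HMSD inside the cluster, where it overlaps SERPINB8. The 2 were HMSD and the sphingolipid enzyme gene KDSR (-0.43 ± 0.085, limma adjusted p = 0.00366). They make up 22.2% of the 9, near the 23.1% of all tested genes that were lower, while 44.9% of all were called. On the PIGN side, the nearest gene to SERPINB5 is VPS4B, 54277 bases away, with 18.3 ± 2.09 FPKM for LoVo and 18.9 ± 0.424 FPKM for LoVo-HM (0.05 ± 0.081, limma adjusted p = 0.665). Among the 7, PIGN had the smallest p, at 5.25 ± 0.404 and 4.54 ± 0.686 FPKM (-0.18 ± 0.103, limma adjusted p = 0.193). The median log2 difference of the 9 was -0.12.

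The sequences before the RefSeq starts of the 2 cluster genes that fell both hold a short match, which is why they are shown. It was picked after a search for several motifs, as the only motif found in both. The SERPINB5 sequence also holds GGGCGG and CAGGTG, and that of SERPINB8 holds TATAAA and CCAAT. Windows of 250 bases before the start were searched on both strands for TGANTCA, the AP-1 motif, which reads the same on either strand. The motif is present in 6.57% of 35116 RefSeq windows of this length (GRCh38.p14). Of 11 windows for 7 tested serpins that had one, 2 held it, those of SERPINB5 and SERPINB8. Over all serpins, tested or not, 9 of 39 windows held it, so it is not particular to the 2 genes. Capitals mark the motif, all 3 windows are on the plus strand, and the first is chr18:63476801-63476829, the second chr18:63969885-63969913 and the third chr18:63970042-63970070.
SERPINB5: taacttcagccTGAATCAtttctttcaat
SERPINB8, distal: ggagtcaaacgTGAATCAacggtgaaaaa
SERPINB8, proximal: tcgaacggttcTGAGTCAtctgccggaag
The SERPINB5 match begins 146 bases before the RefSeq start, and the SERPINB8 matches begin 185 and 28 bases before it. The SERPINB5 window and the proximal SERPINB8 window lie in the first exon of longer GENCODE transcripts. A match is a description of the letters, and binding of AP-1 was not measured.

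The other B clade cluster is on chromosome 6, where SERPINB1, SERPINB9 and SERPINB6 lie on the minus strand within 139.8 kb. All 3 were expressed in both lines and fell by similar amounts, less than SERPINB5 and SERPINB8. SERPINB6, an intracellular inhibitor of cathepsin G and trypsin-like proteases (ENSG00000124570, 2948159 to 2972165), was the most abundant B clade gene in either line by mean level. It was at 26.4, 31.5 and 26.5 FPKM in LoVo and at 20.7, 20.4 and 19.9 FPKM in LoVo-HM. The groups did not overlap, the log2 difference was -0.44 ± 0.073 (limma adjusted p = 0.00137), and its share of the B clade sum was 35.5% ± 2.21 in LoVo and 52.2% ± 2.68 in LoVo-HM (SD, n = 3).

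SERPINB1 encodes an inhibitor of neutrophil elastase, cathepsin G and proteinase 3 (ENSG00000021355, 2832332 to 2842006). Its values were 10.5, 11.2 and 10.95 FPKM in LoVo and 8.97, 6.78 and 8.18 FPKM in LoVo-HM, with a log2 difference of -0.41 ± 0.094 (limma adjusted p = 0.00732). SERPINB9 encodes the inhibitor of granzyme B, with which cells resist cytotoxic lymphocytes (ENSG00000170542, 2887266 to 2903280). Its values were 8.26, 9.59 and 8.40 FPKM in LoVo and 6.50, 6.17 and 7.25 FPKM in LoVo-HM, with a log2 difference of -0.35 ± 0.084 (limma adjusted p = 0.00905). For both genes every LoVo library was above every LoVo-HM library. The 3 genes are paralogs, but each lies at its own locus and none overlaps another gene in GENCODE. Of 9 tested neighbours of this cluster, 3 were lower, none was higher and 6 did not pass, with a median log2 difference of -0.17. The called share was 33.3%, where 44.9% of all tested genes were called and 23.1% were lower. GMDS (-0.39 ± 0.085, limma adjusted p = 0.00571), BPHL (-0.29 ± 0.067, limma adjusted p = 0.00726) and WRNIP1 (-0.17 ± 0.044, limma adjusted p = 0.014) fell. NQO2, 15821 bases from SERPINB6 and named after its value was seen, missed the threshold by little, with 11.5 ± 1.85 FPKM for LoVo and 8.35 ± 1.84 FPKM for LoVo-HM and no overlap (-0.44 ± 0.156, limma adjusted p = 0.0501).

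**Figure D4:**
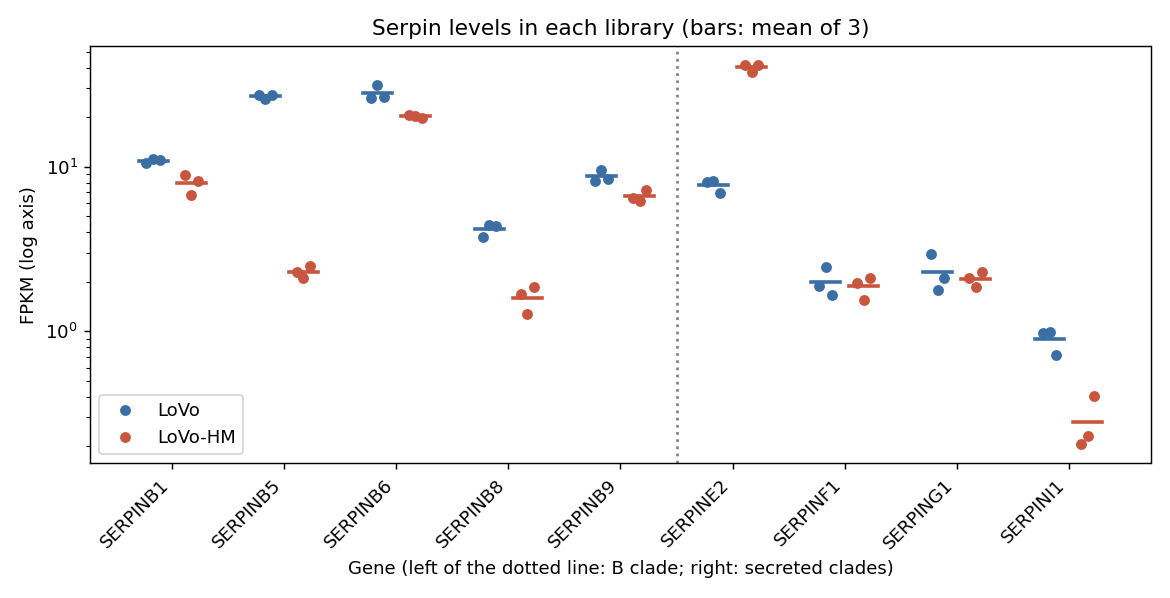
FPKM of 9 of the 10 tested serpins (vertical axis, logarithmic) in each LoVo library (blue points) and each LoVo-HM library (red points), with bars at the mean of 3. The groups are apart for the 5 B clade genes and for SERPINE2 and SERPINI1, and they overlap for SERPINF1 and SERPING1.

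Of the secreted clades, SERPINE2 was the abundant gene. It encodes protease nexin-1, an inhibitor of thrombin, urokinase, tissue plasminogen activator and plasmin that is held by glycosaminoglycans at the cell surface (ENSG00000135919, chromosome 2, 223975112 to 224039319). SERPINE2 was at 8.04, 8.25 and 6.95 FPKM in LoVo but at 41.7, 37.6 and 41.4 FPKM in LoVo-HM. The lowest LoVo-HM library was far above the highest LoVo library. The ratio of the means was 5.19 and the log2 difference 2.24 ± 0.075 (limma adjusted p = 6.39e-08), the rank 71 among increases in the 14487 tested genes. It moved from the percentile 47.0 of tested genes by level in LoVo to 88.5 in LoVo-HM. SERPINE2 made up 54.9% ± 1.36 of the secreted serpin FPKM in LoVo and 87.4% ± 1.08 in LoVo-HM, and 8.30% ± 0.571 and 47.3% ± 0.256 of the FPKM of all serpins (SD, n = 3). Its nearest neighbour MRPL44, 7397 bases away, was at 31.7 ± 3.26 and 32.5 ± 2.75 FPKM (0.04 ± 0.085, limma adjusted p = 0.741). SERPINE3, of the same clade, was too low to test, at 0.218, 0.116 and 0.0578 FPKM in LoVo and at 0.229, 0.189 and 0.349 FPKM in LoVo-HM.

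RefSeq gives 2 start sites for SERPINE2, an outer start near the 5' end of the gene and an inner start within it. The table does not divide the gene by start. The 250 bases before the inner start (chr2:224031479-224031728, minus strand, GRCh38.p14) lie within the gene and outside its GENCODE exons. They are shown because they hold an array of CCAAT boxes and SERPINE2 is the one serpin gene that rose. The array was noticed only after the windows were searched, and use of the inner start was not measured. Capitals mark CCAAT or its reverse complement ATTGG, the GC box GGGCGG and the E-box CACGTG.
SERPINE2: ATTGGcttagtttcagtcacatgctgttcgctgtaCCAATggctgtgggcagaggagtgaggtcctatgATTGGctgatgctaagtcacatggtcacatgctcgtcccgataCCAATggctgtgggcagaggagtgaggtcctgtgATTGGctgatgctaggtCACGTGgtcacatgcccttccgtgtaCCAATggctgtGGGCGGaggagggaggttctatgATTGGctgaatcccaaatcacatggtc
The window holds 7 CCAAT boxes, and 0.0199% of the 35116 RefSeq windows hold at least as many. The letters around the boxes repeat along the window. ATTGG begins 250, 181, 104 and 27 bases before the start, and CCAAT 215, 138 and 61. The boxes are thus parts of a repeat and not 7 independent matches. At least 1 CCAAT box is present in 32.0% of windows, GGGCGG or its reverse complement CCGCCC in 42.6% and CACGTG in 6.34%. The window before the other start holds no CCAAT box and has 28 CpG dinucleotides, against 6 in the window shown and a median of 11 over all windows. The TATA box TATAAA (10.7% of windows) and the E-box CACCTG (17.5%) were also searched on both strands, and neither is in the window shown.

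SERPINI1 encodes neuroserpin, an inhibitor of tissue plasminogen activator known mainly from neurons (ENSG00000163536, chromosome 3, 167735243 to 167825568). It was at 0.976, 0.984 and 0.721 FPKM in LoVo and at 0.205, 0.230 and 0.402 FPKM in LoVo-HM. Being under 0.5 FPKM in LoVo-HM, it was tested only through its level in LoVo, so its call leans on that filter. The groups did not overlap and the log2 difference was -0.57 ± 0.121 (limma adjusted p = 0.00513), or -1.42 with a pseudocount of 0.1. PDCD10, which starts on the other strand 303 bases from SERPINI1, fell from 18.6 ± 1.28 to 14.7 ± 1.05 FPKM (-0.32 ± 0.073, limma adjusted p = 0.00724). SERPINI2, a serpin of the pancreas whose gene is on the same chromosome, was listed at 0 in every library.

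SERPINF1 and SERPING1 did not pass the test, and their intervals leave room for modest changes in either direction. SERPINF1 encodes PEDF, a serpin without inhibitor activity that limits blood vessel growth (ENSG00000132386, chromosome 17, 1761959 to 1777574). It was at 1.89, 2.45 and 1.67 FPKM in LoVo and at 1.98, 1.54 and 2.11 FPKM in LoVo-HM, with overlap (log2 difference -0.06 ± 0.127, 95% interval -0.35 to 0.23, limma adjusted p = 0.735). SERPING1 encodes the inhibitor of the first complement proteases (ENSG00000149131, chromosome 11, 57597387 to 57614853). It was at 2.94, 1.78 and 2.12 FPKM in LoVo and at 2.09, 1.86 and 2.29 FPKM in LoVo-HM, again with overlap (-0.08 ± 0.136, 95% interval -0.39 to 0.23, limma adjusted p = 0.67). The sign of SERPINF1 turned without LoVo replicate 2 (0.05) or LoVo-HM replicate 2 (0.03), and that of SERPING1 without LoVo replicate 1 (0.06). SERPINF2, the plasmin inhibitor next to SERPINF1, was at 0.192, 0.214 and 0.0873 FPKM in LoVo and at 0.0960, 0.199 and 0.274 FPKM in LoVo-HM.

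The plasma serpins of clades A, C and D, made mainly by the liver, were at most at 0.550 FPKM (SERPINA10) in any library, most of them at or near 0. On chromosome 14, 10 clade A genes lie within 343.6 kb and none was tested. SERPINA2, SERPINA4, SERPINA5, SERPINA6, SERPINA9, SERPINA11 and SERPINA12 were listed at 0 in all 6 libraries, as was SERPINA7, the thyroxine carrier on chromosome X. SERPINA1, which encodes the elastase inhibitor alpha-1-antitrypsin, was at most 0.0662 FPKM in any library, and SERPINA3, which encodes antichymotrypsin, at most 0.0451 FPKM. The highest of the cluster was SERPINA10, an inhibitor of clotting factor Xa that acts with protein Z, at 0.358, 0.526 and 0.550 FPKM in LoVo and at 0.245, 0.307 and 0.342 FPKM in LoVo-HM. These groups do not overlap, but SERPINA10 was not called without the filter either (-0.19 ± 0.071, limma adjusted p = 0.0998). SERPINC1, which encodes antithrombin, was listed at 0, and SERPIND1, which encodes the thrombin inhibitor heparin cofactor, was at 0.166, 0 and 0 FPKM in LoVo and at 0.0633, 0.192 and 0.122 FPKM in LoVo-HM.

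In LoVo, the order of mean levels was SERPINB6 (28.1 ± 2.94 FPKM), SERPINB5 (26.8 ± 0.880), SERPINB1 (10.9 ± 0.349), SERPINB9 (8.75 ± 0.732), SERPINE2 (7.75 ± 0.698) and SERPINB8 (4.17 ± 0.383). SERPINB6 and SERPINB5 overlap in that order, as do SERPINB9 and SERPINE2 within their SD. In LoVo-HM the order was SERPINE2 (40.2 ± 2.30 FPKM), SERPINB6 (20.4 ± 0.401), SERPINB1 (7.98 ± 1.11), SERPINB9 (6.64 ± 0.555) and SERPINB5 (2.30 ± 0.188). SERPINB1 and SERPINB9 overlap in that order. SERPINB5, SERPING1 (2.08 ± 0.212), SERPINF1 (1.88 ± 0.296) and SERPINB8 (1.603 ± 0.2996) overlap there between neighbours (SD, n = 3 for each).

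The proteases that serpins act on were counted in lists by kind, again with limma's threshold over all genes and to be read against the 44.9% called overall. Of the called genes in them, PLAT was under 0.5 FPKM in LoVo, and F10, CTSS, CASP1, TMPRSS3 and TMPRSS4 in LoVo-HM, so these were tested only through the line where they are high. Of 5 tested plasminogen, coagulation and contact proteases (12 listed), 1 rose, 2 fell and 2 did not pass, with a median log2 difference of -0.40. PLAT, the tissue plasminogen activator, a target of SERPINE2 and SERPINI1, rose from 0.450 ± 0.137 to 2.61 ± 0.423 FPKM (1.32 ± 0.125, limma adjusted p = 5.12e-05), or by 2.32 with a pseudocount of 0.1. PLAU, the urokinase, did not pass, at 6.64 ± 0.331 and 6.77 ± 0.386 FPKM (0.02 ± 0.072, limma adjusted p = 0.816), and its sign turned without LoVo-HM replicate 3 (-0.0082). F12 and F10, clotting factors XII and X, fell by 0.48 each on the log2 scale (limma adjusted p = 0.000604 and 0.0126). Plasminogen itself (PLG) was at a mean of 0.105 FPKM in LoVo and 0 in LoVo-HM, and thrombin (F2) at means of 0.0057 and 0.0832 FPKM.

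Most cathepsins, lysosomal proteases of which several are targets of B clade serpins, were lower. Of 9 tested cysteine cathepsins (11 listed), 7 fell and 2 did not pass, with a median of -0.60. CTSS fell from 2.47 ± 0.117 to 0.414 ± 0.128 FPKM (-1.30 ± 0.105, limma adjusted p = 1.88e-05), or by 2.35 with a pseudocount of 0.1. CTSB fell from 127 ± 5.98 to 75.1 ± 7.37 FPKM (-0.76 ± 0.073) and CTSH from 29.02 ± 0.363 to 20.5 ± 1.10 FPKM (-0.48 ± 0.055). CTSL fell from 30.7 ± 2.88 to 17.4 ± 2.15 FPKM (-0.78 ± 0.096) and CTSV from 20.5 ± 0.416 to 14.2 ± 0.732 FPKM (-0.51 ± 0.058), with limma adjusted p = 0.000236 and 0.000155. None of the 12 genes listed as granule serine proteases was tested, and the 12 summed to at most 0.800 FPKM in a library. Some of them are targets of SERPINB1, SERPINB6 and SERPINB9 in white blood cells. Of 9 tested caspases (11 listed), 2 rose, 4 fell and 3 did not pass, with a median of -0.07. CASP1, the caspase that matures interleukins, fell from 5.53 ± 0.494 to 0.229 ± 0.0940 FPKM (-2.41 ± 0.104, limma adjusted p = 3.25e-07), or by 4.13 with a pseudocount of 0.1. CASP4 fell (-1.07 ± 0.116, limma adjusted p = 0.00011) and CASP2 rose (0.46 ± 0.050, limma adjusted p = 0.000126).

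Cell surface and secretory proteases were split. Among transmembrane serine proteases, 5 of 6 tested (12 listed) fell and 1 did not pass, with a median of -0.78. The matriptase gene ST14 fell from 61.9 ± 0.905 to 31.8 ± 1.19 FPKM (-0.94 ± 0.047, limma adjusted p = 7.61e-07), and PRSS8 (-0.78 ± 0.092) and TMPRSS3 (-0.79 ± 0.135) fell too (limma adjusted p = 0.000196 and 0.00161). KLK10, the tested member of 15 tissue kallikreins, fell from 28.9 ± 0.624 to 1.66 ± 0.0988 FPKM (-3.49 ± 0.064, limma adjusted p = 2.02e-09). Of 7 tested proprotein convertases (9 listed), MBTPS1 rose (0.18 ± 0.052, limma adjusted p = 0.0214) and 6 did not pass, with a median of -9e-04. The next smallest p-values there were those of PCSK7 (-0.19 ± 0.077) and PCSK5 (-0.30 ± 0.118), with limma adjusted p = 0.0704 and 0.0711. FURIN, the target of SERPINB8, was at 7.90 ± 0.328 and 7.27 ± 0.653 FPKM (-0.11 ± 0.079, limma adjusted p = 0.291). Of 3 tested complement initiating proteases (4 listed), MASP2 rose (0.38 ± 0.101, limma adjusted p = 0.0142). The SERPING1 targets C1R (0.25 ± 0.093) and C1S (0.34 ± 0.133) did not pass (limma adjusted p = 0.058 and 0.0649), but both passed without LoVo replicate 3 (limma adjusted p = 0.0355 and 0.0467), under quantile normalization (0.0125 and 0.0414) and without an intensity trend (0.0472 and 0.0409). Without LoVo replicate 1 the adjusted p-values were 0.173 and 0.189. With a pseudocount of 0.1, C1S was at 0.81 and did not pass (limma adjusted p = 0.074). The LoVo mean of C1S, 0.462 FPKM, fell short of the filter of 0.5 FPKM. C1S thus entered the test through LoVo-HM alone, and its passes under the alternatives lean on that filter.

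**Figure D5:**
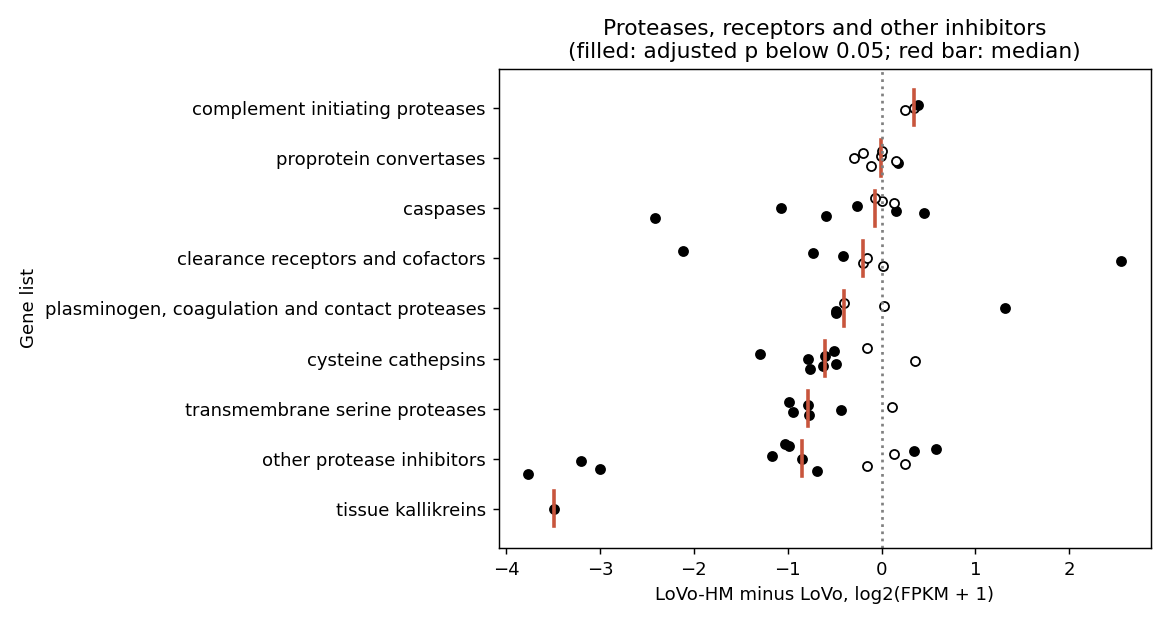
Difference between LoVo-HM and LoVo on the log2(FPKM + 1) scale (horizontal axis) for tested genes of the lists of proteases, receptors and other inhibitors (vertical axis), 1 point per gene, filled where called, with a red bar at the list's median. Most filled points of the cathepsins, transmembrane proteases and other inhibitors lie below 0, and LRP2 at 2.55 is the point farthest to the right.

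Serpin complexes are cleared by receptors of the LDL receptor family. Of 7 tested clearance receptors and cofactors (9 listed), 1 rose, 3 fell and 3 did not pass, with a median of -0.20. LRP2, or megalin, an endocytic receptor for protease complexes, rose from 1.42 ± 0.0950 to 13.2 ± 0.479 FPKM (2.55 ± 0.073, limma adjusted p = 2.31e-08). The sorting receptor SORL1 fell from 44.1 ± 1.53 to 9.41 ± 0.199 FPKM (-2.11 ± 0.052, limma adjusted p = 1.05e-08) and the urokinase receptor PLAUR from 7.87 ± 0.584 to 4.37 ± 0.566 FPKM (-0.73 ± 0.096, limma adjusted p = 0.000376). LRP1, which takes up SERPINE2 complexes, was at 2.35 ± 0.121 and 1.92 ± 0.224 FPKM (-0.20 ± 0.094, limma adjusted p = 0.119). VLDLR was at most at a mean of 0.0390 FPKM.

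Protease inhibitors outside the serpin family were counted in the same way. Of 13 tested (22 listed), 2 rose, 8 fell and 3 did not pass, with a median of -0.85. A2ML1, SPINK6 and CSTA were under 0.5 FPKM in LoVo-HM and were tested only through their level in LoVo, so the count and median of this list lean on genes that had to differ. The macroglobulin-like inhibitor A2ML1 fell from 17.4 ± 1.26 to 0.354 ± 0.112 FPKM (-3.76 ± 0.094, limma adjusted p = 1.08e-08). SPINK6, a Kazal-type inhibitor, fell from 8.67 ± 0.971 to 0.0502 ± 0.0435 FPKM (-3.20 ± 0.103, limma adjusted p = 4.79e-08), and the Kunitz-type inhibitor SPINT2, which blocks matriptase, from 159 ± 9.48 to 69.9 ± 2.26 FPKM (-1.17 ± 0.053, limma adjusted p = 4.13e-07). The leukocyte protease inhibitor SLPI was too low to test, with 0.582 ± 0.204 FPKM for LoVo and 0.0748 ± 0.0663 FPKM for LoVo-HM. In bulk libraries, fewer cells that express a gene and less of its RNA per cell cannot be told apart.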

How the data were processed

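The authors deposited FPKM values for each gene in each library, made from TruSeq RNA libraries of Trizol RNA per the labels' protocols. They used GRCh38, per the submitters' processing notes, with aligner, counter, annotation release and strand setting not given in the sources used here. No read steps were found in values under 0.3 FPKM (the commonest bin of 0.05 log2 units held at most 3.35% of ratios between libraries), so depth is unknown. Values were used as log2(FPKM + 1), and the 14487 genes averaging 0.5 FPKM or more were fitted with limma 3.58.1 (R 4.3.3), using an intensity trend and Benjamini-Hochberg adjustment. The fit was tested on simulated data for LoVo-HM against LoVo with 14487 genes. There 60% of changes of 0.5 log2 units were recovered, 88% at 1 and 100% at 2, with 2.79% false calls. Only genes above about 2 FPKM were changed, and far fewer than the 44.9% called in the data. These rates therefore need not hold for this comparison or for lower genes. Positions are from GENCODE 29, which matched all 34 members, and sequences from RefSeq (GRCh38.p14), which matched 26.

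The members and lists were chosen with earlier results of these data known. Counts cover all members, of which 1 tested member of the secreted clades is not reported here by itself. The rule names every other member, up to 3 tested members of each list with the smallest p, and 13 known partners (PLAU, PLAT, PLAUR, CTSL, CTSS, CTSV, FURIN, C1R, C1S, CASP1, LRP1, VLDLR and SLPI). VPS4B, NQO2, MRPL44, PDCD10, PLG and F2 were named after their values were seen. Alternatives were other pseudocounts, filters, scalings and variance fits, a replicate block, and leaving out each library.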

Additional observations from a re-analysis of the deposited data

How the results depend on the processing

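Over 16 alternatives the count of called genes was 5483 to 6626 against 6508, and 5483 to 5983 with 1 library left out. Higher calls outnumbered lower ones with libraries rescaled to the same total (3564 against 3062) and under quantile normalization (3651 against 2964), the reverse of 3161 against 3347. The B clade count was 5 lower under every alternative except without the filter, where SERPINB13 made it 6. The secreted clade count was 2 to 3 under the alternatives (2 to 3 with 1 library left out), except for 1 with a minimum mean of 2 FPKM, where 2 members were tested. The 7 called serpins passed under every alternative that tested them. SERPINI1, among them, reached the main filter only through its level in LoVo. Signs turned, none past the threshold, under quantile normalization for SERPINF1 (0.0357) and SERPING1 (0.023). They also turned with 1 library left out, over ranges of -0.1395 to 0.0459 for SERPINF1, -0.1891 to 0.0624 for SERPING1 and -0.0082 to 0.0628 for PLAU. The cause was not tested. Same-numbered libraries of the 2 groups showed no shared deviation (correlations of -0.007, 0.022 and 0.026). This cannot tell whether libraries of the same number were cultured or prepared together. The replicate block gave 6459 calls, and 1 of the 3 LoVo-HM libraries correlated best with the LoVo library of its own number. Low serpins are limited by unknown depth.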

Other observations

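Of 10 listed neighbours of the chromosome 14 serpin cluster, itself at or near 0, ASB2 and GSC were listed at 0 and 8 were tested. Of these, 1 rose, 4 fell and 3 did not pass, with a median log2 difference of -0.29. The called share was 62.5%, against 44.9% of all tested genes. The interferon-induced gene IFI27 fell from 109 ± 9.47 to 46.0 ± 4.13 FPKM (-1.23 ± 0.080, limma adjusted p = 4.43e-06), PPP4R4 from 5.23 ± 0.0622 to 2.32 ± 0.169 FPKM (-0.91 ± 0.078, limma adjusted p = 2.67e-05) and DICER1, which encodes the microRNA-processing enzyme Dicer, from 13.8 ± 1.19 to 9.04 ± 0.215 FPKM (-0.56 ± 0.072, limma adjusted p = 0.000313; SD, n = 3). UBE2L6, the nearest gene to SERPING1 on one side, fell from 28.1 to 18.2 mean FPKM (-0.60 ± 0.064, limma adjusted p = 0.000104), while SERPING1 did not pass. UBE2L6 was named after its value was seen.

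Windows before serpin genes differed in CpG content. The 250 bases before the RefSeq starts of SERPINB1 and SERPINB9 held 21 and 27 CpG dinucleotides, against 13 for SERPINB5 and 7 for SERPINB8 and a median of 11 over 35116 windows. The 4 windows of SERPINB6 held 3 to 34. DNA methylation was not measured.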
